A study of Mus musculus with 12 samples.

Results

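The data describe 10 genes that set the level of the second messenger cyclic AMP (cAMP), measured in macrophages grown from the bone marrow of C57BL/6 mice. The members are 7 phosphodiesterase genes (Pde4a, Pde4b, Pde4d, Pde3b, Pde1b, Pde7a and Pde8a) and 3 adenylyl cyclase genes (Adcy3, Adcy7 and Adcy9). They were taken by symbol from the deposited count table, which holds 50559 genes, and all 10 were among the 13530 genes that passed the filter on low counts and were tested. In 6 libraries the cells had met HDM (house dust mite allergen, used in mice to set off airway allergy) for 1 h, and in the other 6 they had met vehicle for 1 h. The labels give no genotype, sex or age. Whether each library is an animal or culture of its own is not stated either, so the p-values speak for the spread among these libraries, which may be technical. The title names the scaffold AKAP79 (AKAP150 in mouse), which tethers protein kinase A, and the comparison asks which transcripts the allergen changes.

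Adenylyl cyclases make cAMP when a receptor switches on the stimulatory G protein Gs, and cyclic nucleotide phosphodiesterases break it down. In macrophages a rise of cAMP dampens the release of TNF and other inflammatory cytokines, and the PDE4 family is known as the main target of the drugs that raise cAMP in these cells. AKAP scaffolds are known to bind adenylyl cyclases and PDE4 enzymes as well as protein kinase A. The gene of AKAP150, Akap5, had 11 reads in the HDM libraries together and 5 in the vehicle libraries and was not tested.

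After 1 h, Pde4b was the 1 member that rose by the test without a block, and no member fell. Pde4b was 3.92-fold higher with HDM than with vehicle (n = 6 each), with a 95% interval of 1.38 to 2.57 on the log2 scale. Pde4d was higher by 1.29-fold without a block (95% interval 1.09 to 1.54) and was not called. When the replicate number entered as a block it was called, with a 95% interval of 0.17 to 0.57 on the log2 scale. The other 8 members lay between 0.913-fold and 1.08-fold, and none of them was called in either fit. The test was edgeR's quasi-likelihood test over all genes, two-sided, with Benjamini-Hochberg adjustment, and an adjusted p under 0.05 made a call. It called 5.37% of all tested genes, 2.90% higher and 2.47% lower, against 1 of the 10 members. Blocked by replicate number it called 14.7% of all genes, 7.90% higher and 6.81% lower, against 2 of the 10 members.

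Counted reads per library ran from 19.76 M to 119.71 M with HDM and from 19.69 M to 62.41 M with vehicle. All 9 macrophage markers were tested and none was called by edgeR, and their summed level ran from 16504 to 21177 CPM (counts per M reads) with HDM and from 16520 to 21709 with vehicle. Markers of lymphocytes summed to at most 0.129 CPM with HDM and 0.193 with vehicle, and neutrophil markers to at most 6.01 and 5.38. Dendritic cell markers summed to at most 1.07 CPM with HDM and 0.688 with vehicle, those of mast cells and basophils to at most 2.22 and 2.12, and those of stroma and endothelium to at most 4.76 and 5.36. Erythroid and megakaryocyte markers summed to 99.5 to 198 CPM with HDM and 95.2 to 190 with vehicle, nearly all of it Pf4, with Hbb-bs at 0. The libraries numbered 5 and 6 of both treatments stood apart from the other 8 on the first principal component, which held 48.2% of the variance (28.7 and 29.1 with HDM and 22.1 and 21.1 with vehicle, against -17.7 to -7.26 in the others). The labels do not say what sets these numbers apart. In a bulk sample, fewer cells that express a gene and less of its RNA per cell cannot be told apart.

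**Figure D1:**
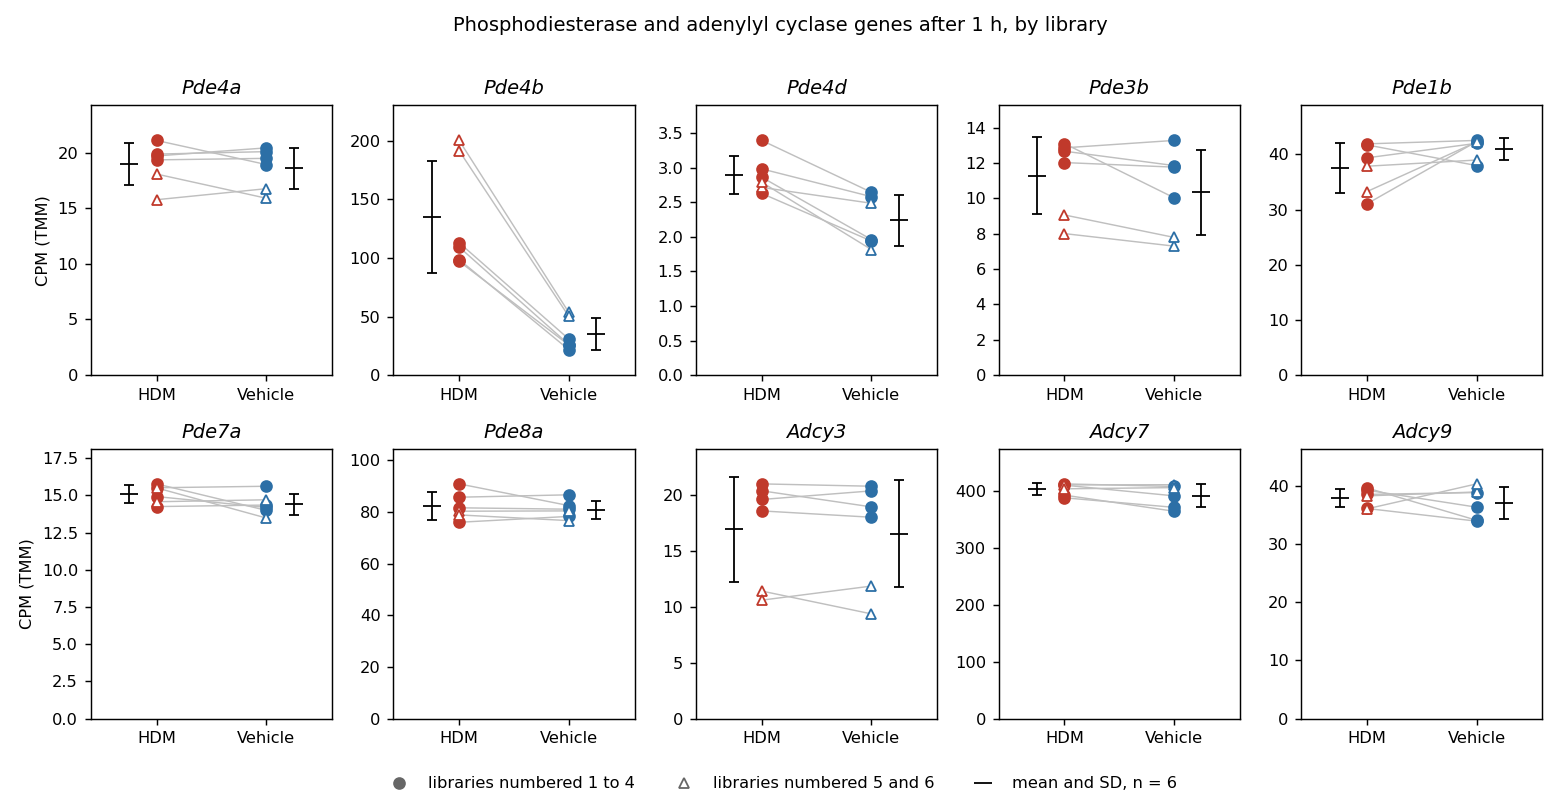
Level in CPM with TMM factors (y axis, from 0) of each member in every library, HDM left and vehicle right. Filled circles are libraries numbered 1 to 4, open triangles those numbered 5 and 6, grey lines join equal numbers, and black marks give mean and SD (n = 6). The groups are apart for Pde4b, with at least 97.2 CPM with HDM and at most 53.5 with vehicle, and overlap for the other 9.

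Pde4b, Pde4a and Pde4d encode enzymes of the PDE4 family, which break down cAMP and not cGMP and are the targets of rolipram and roflumilast. In mouse macrophages Pde4b is known to be induced by lipopolysaccharide and to sustain TNF production. Pde4b had a lowest level of 97.2, a median of 111 and a highest level of 200.3 CPM in the HDM libraries, against 21.8, 28.5 and 53.5 CPM in the vehicle libraries. Every HDM library lay above every vehicle library, a separation that 4.39% of all tested genes showed in 1 direction or the other. The mean was 135 ± 47.6 CPM with HDM and 34.7 ± 13.7 CPM with vehicle (SD over libraries, n = 6 each), a log2 fold change of 1.97 ± 0.27 SE (edgeR adjusted p = 0.00062). Blocked by replicate number, the log2 fold change was 1.98 ± 0.04 SE (edgeR adjusted p = 1.72e-16). The counts behind these levels were large, 39346 reads in the HDM libraries together and 7989 in the vehicle libraries.

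The spread of Pde4b within a treatment followed the library numbers. In numbers 5 and 6 it lay at 200.3 and 191 CPM with HDM and at 53.5 and 50.2 CPM with vehicle. In numbers 1 to 4 it lay between 97.2 and 113 CPM with HDM and between 21.8 and 30.8 CPM with vehicle. The libraries numbered 5 and 6 were thus 1.87 times the mean of the other 4 with HDM and 1.99 times with vehicle. The response did not share that spread. The ratio of HDM to vehicle level within numbers 1 to 6, in order, was 4.18, 4.53, 3.67, 3.77, 3.74 and 3.81. Without numbers 5 and 6 the log2 fold change was 2.01 ± 0.09 SE (n = 4 each, edgeR adjusted p = 6.44e-09). In numbers 5 and 6 alone it was 1.93 ± 0.04 SE (n = 2 each, edgeR adjusted p = 9.13e-34). That p-value measures only the spread between libraries 5 and 6 of each treatment, which may be technical. It is not stronger evidence than the fit of all libraries. If neighbouring numbers (1 and 2, 3 and 4, 5 and 6) are not independent, each treatment holds 3 samples. With their counts summed, the log2 fold change stayed at 1.98 ± 0.38 SE but was no longer called (edgeR adjusted p = 0.122), and with the pair of numbers as a block it was called again (1.99 ± 0.05 SE, adjusted p = 4.04e-12).

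**Figure D2:**
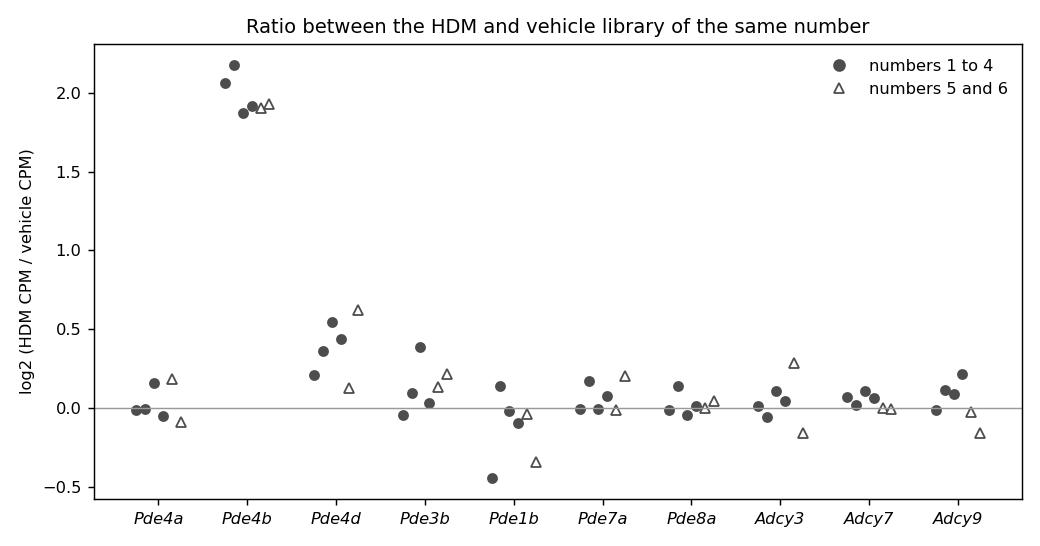
Log2 ratio of CPM, HDM over vehicle library of the same number (y axis), for each member (x axis), 1 point per number. Filled circles are numbers 1 to 4 and open triangles numbers 5 and 6. The 6 points of Pde4b lie between 1.88 and 2.18 and those of Pde4d between 0.13 and 0.62, while the points of each other member fall on both sides of 0.

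Pde4b has 4 annotated start sites in the RefSeq promoter table (GRCm38.p6), and counts per gene do not say from which of them its transcripts came. The windows around the first and the last of them on the plus strand, 250 bases before to 50 after the start, are shown because they are the outermost annotated starts of the member with the largest change. Capitals mark the single motif match found, the letters CGTCA, which are a cAMP response element half-site (TGACG) read on the other strand, 34 bases before the start.
Pde4b start site 1, chr4:102421305-102421604: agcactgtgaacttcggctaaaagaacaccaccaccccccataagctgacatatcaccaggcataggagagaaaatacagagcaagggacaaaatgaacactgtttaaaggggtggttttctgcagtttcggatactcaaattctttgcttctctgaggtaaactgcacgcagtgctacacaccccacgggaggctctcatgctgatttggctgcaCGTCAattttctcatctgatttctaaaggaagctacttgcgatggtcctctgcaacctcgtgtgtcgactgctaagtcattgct
Pde4b start site 4, chr4:102589593-102589892: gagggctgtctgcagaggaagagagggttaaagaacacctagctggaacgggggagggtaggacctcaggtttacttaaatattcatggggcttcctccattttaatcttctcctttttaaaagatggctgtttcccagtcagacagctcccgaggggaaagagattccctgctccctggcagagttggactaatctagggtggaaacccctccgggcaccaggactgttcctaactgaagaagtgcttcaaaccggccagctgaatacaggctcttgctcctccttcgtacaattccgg

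The motifs searched on both strands were the full cAMP response element (TGACGTCA), its half-site TGACG, which the full element contains, the AP-1 site (TGANTCA) and a kB site of 10 letters that begins with GGGA and ends in TTTCC, with any letter between them. Of all 32851 promoter windows of 300 bases, 1.79% held the full element, 20.8% the half-site, 7.81% the AP-1 letters and 0.411% the kB letters. In the 4 windows of Pde4b the half-site in the first was the only match. The table held 18 windows for 8 of the 10 members and none for Pde3b and Pde7a. Neither the full element nor the kB letters were in any of the 18. The half-site was in 1 window each of Pde4a, Pde4b, Pde8a, Adcy7 and Adcy9, and the AP-1 letters were in 1 window each of Adcy3 and Adcy7. These are matches of letters, not sites shown to be bound.

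Pde4d was the member with the fewest reads, 886 in the HDM and 568 in the vehicle libraries. Its level had a minimum of 2.63, a median of 2.83 and a maximum of 3.39 CPM with HDM, against 1.82, 2.22 and 2.64 CPM with vehicle. The groups overlapped only in that the highest vehicle library, number 2, lay just above the lowest HDM library, number 4. The means were 2.89 ± 0.27 CPM with HDM and 2.24 ± 0.37 CPM with vehicle (SD over libraries, n = 6 each), a log2 fold change of 0.37 ± 0.12 SE (edgeR adjusted p = 0.0998, unadjusted p = 0.00694). Within each of the 6 numbers the HDM library was the higher one, by 1.09-fold to 1.54-fold. Blocked by replicate number, the log2 fold change was 0.37 ± 0.09 SE (edgeR adjusted p = 0.0127), and leaving out any 1 number kept it between 0.33 and 0.42 (adjusted p 0.0136 to 0.0464). The single Pde4d window in the promoter table, on the plus strand, is shown beside those of Pde4b because Pde4d is the other member called in the blocked fit. It held none of the 4 motifs and so has no capitals.
Pde4d, chr13:108653927-108654226: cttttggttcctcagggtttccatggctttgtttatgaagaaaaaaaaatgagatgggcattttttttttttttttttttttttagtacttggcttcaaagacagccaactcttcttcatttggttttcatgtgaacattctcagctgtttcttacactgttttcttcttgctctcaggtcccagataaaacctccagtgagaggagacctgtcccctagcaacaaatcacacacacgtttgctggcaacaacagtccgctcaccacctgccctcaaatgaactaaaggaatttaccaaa

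Pde4a, the remaining PDE4 gene of the set, did not differ beyond its spread. It ran from 15.8 to 21.1 CPM with HDM (median 19.5) and from 15.9 to 20.4 CPM with vehicle (median 19.2). Its log2 fold change was 0.02 ± 0.08 SE (95% interval -0.14 to 0.19, edgeR adjusted p = 1), and its libraries numbered 5 and 6 were the lowest of both treatments. Within a library, the log2 ratio of Pde4b to Pde4a reads averaged 2.77 ± 0.60 with HDM and 0.82 ± 0.68 with vehicle (SD over libraries, n = 6 each; exact permutation test over libraries, two-sided p = 0.00216, the smallest that 6 against 6 allows). The log2 ratio of Pde4b to Pde4d averaged 5.48 ± 0.54 with HDM and 3.88 ± 0.66 with vehicle (exact permutation p = 0.00216). Such ratios need no scaling between libraries. Of 9 ratios, Pde4b against each other member, 8 had no overlap between treatments, and that to Adcy3 overlapped (exact permutation p = 0.0108). Within library numbers, each of the 9 ratios was higher with HDM in 6 of 6 numbers, that to Adcy3 by 1.62 to 2.24 on the log2 scale (exact sign-flip permutation test over numbers, two-sided p = 0.0312 for each, the smallest that 6 pairs allow). Pde4b was put on top of these ratios after its values were seen. All 9 share its rise, so they restate that change and add no support of their own. The p-values are not adjusted and take the libraries, or the numbers, as independent, which the labels do not state. Those within numbers also take equal numbers as pairs, which neither the labels nor the correlations between libraries establish.

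The remaining phosphodiesterases stood at or near their vehicle levels. Pde3b encodes an enzyme that breaks down cAMP and is inhibited by cGMP. It ran from 8.01 to 13.1 CPM with HDM (median 12.4) and from 7.30 to 13.3 CPM with vehicle (median 10.9), with a log2 fold change of 0.12 ± 0.17 SE (95% interval -0.24 to 0.47, edgeR adjusted p = 0.954). Pde1b encodes an enzyme that calcium and calmodulin switch on and that breaks down both cAMP and cGMP. It ran from 31.1 to 41.9 CPM with HDM (median 38.6) and from 38.0 to 42.5 CPM with vehicle (median 42.1). HDM libraries 1, 5 and 6 lay below all vehicle libraries while the other 3 overlapped them, and the log2 fold change was -0.13 ± 0.07 SE (95% interval -0.29 to 0.03, edgeR adjusted p = 0.504). Blocked by replicate number it was -0.14 ± 0.06 SE (95% interval -0.27 to -0.02, unadjusted p = 0.0252, edgeR adjusted p = 0.121). Pde1b was lower with HDM in 5 of the 6 numbers, furthest in number 1 at 0.733-fold, and leaving out number 1 moved the blocked value to -0.06 (edgeR adjusted p = 0.513). Leaving out HDM library 1 moved the value without a block to -0.08 (edgeR adjusted p = 0.75). It was called lower in the libraries numbered 5 and 6 alone (-0.20 ± 0.06 SE, edgeR adjusted p = 0.0269) and not in numbers 1 to 4 alone (-0.11 ± 0.08 SE, adjusted p = 0.533). The p-value in numbers 5 and 6 alone measures only the spread between those libraries, which may be technical.

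Pde7a and Pde8a encode enzymes specific for cAMP that rolipram does not inhibit. Pde7a ran from 14.2 to 15.8 CPM with HDM (median 15.2) and from 13.5 to 15.6 CPM with vehicle (median 14.3). Its log2 fold change was 0.07 ± 0.05 SE (95% interval -0.03 to 0.17, edgeR adjusted p = 0.651). Pde8a, the phosphodiesterase member with the highest level per exon length in vehicle, ran from 76.1 to 90.9 CPM with HDM (median 81.0) and from 76.7 to 86.7 CPM with vehicle (median 80.8). Its log2 fold change was 0.02 ± 0.04 SE (95% interval -0.07 to 0.12, edgeR adjusted p = 0.988). The 95% interval ended at 1.12-fold for Pde7a and at 1.09-fold for Pde8a.

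None of the 3 adenylyl cyclase genes was called (0 at an unadjusted p under 0.05 by edgeR, and 0 called by DESeq2 or limma-voom). Adcy7 encodes a cyclase known from blood cells and macrophages, and it was by far the most abundant member. It ran from 387 to 412 CPM with HDM (median 406) and from 364 to 410.1 CPM with vehicle (median 398), with a log2 fold change of 0.04 ± 0.04 SE (95% interval -0.04 to 0.12, edgeR adjusted p = 0.838). Adcy9, which encodes a cyclase poorly sensitive to forskolin, ran from 36.0 to 39.6 CPM with HDM (median 38.4) and from 33.9 to 40.3 CPM with vehicle (median 37.6). Its log2 fold change was 0.04 ± 0.05 SE (95% interval -0.07 to 0.14, edgeR adjusted p = 0.949). Adcy3, which encodes a cyclase best known from olfactory signalling, ran from 10.6 to 21.0 CPM with HDM (median 19.1) and from 9.37 to 20.8 CPM with vehicle (median 18.5).

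The wide range of Adcy3 went with the library numbers. It lay at 11.4 and 10.6 CPM in HDM libraries 5 and 6 and at 9.37 and 11.9 CPM in vehicle libraries 5 and 6, against 18.6 to 21.0 CPM and 18.0 to 20.8 CPM in numbers 1 to 4. Its log2 fold change was 0.02 ± 0.22 SE without a block (95% interval -0.46 to 0.50, edgeR adjusted p = 1) and 0.02 ± 0.05 SE with the replicate number as a block (-0.08 to 0.12, adjusted p = 0.818). Without numbers 5 and 6 it was 0.03 ± 0.06 SE (adjusted p = 0.861). Pde3b had the same order, with numbers 5 and 6 at 0.674 times the mean of the other 4 with HDM and 0.643 times with vehicle. Without these numbers its log2 fold change was 0.11 ± 0.08 SE (edgeR adjusted p = 0.504). Pde4b was the reverse, since its level was higher in these numbers in both treatments. Adcy3 overlaps the gene Cenpo on the other strand in the GENCODE M21 annotation, and the strand setting of the counting is not given, so some of its reads may belong to Cenpo. Exons of Pde7a likewise overlap an antisense gene, Gm16093.

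**Figure D3:**
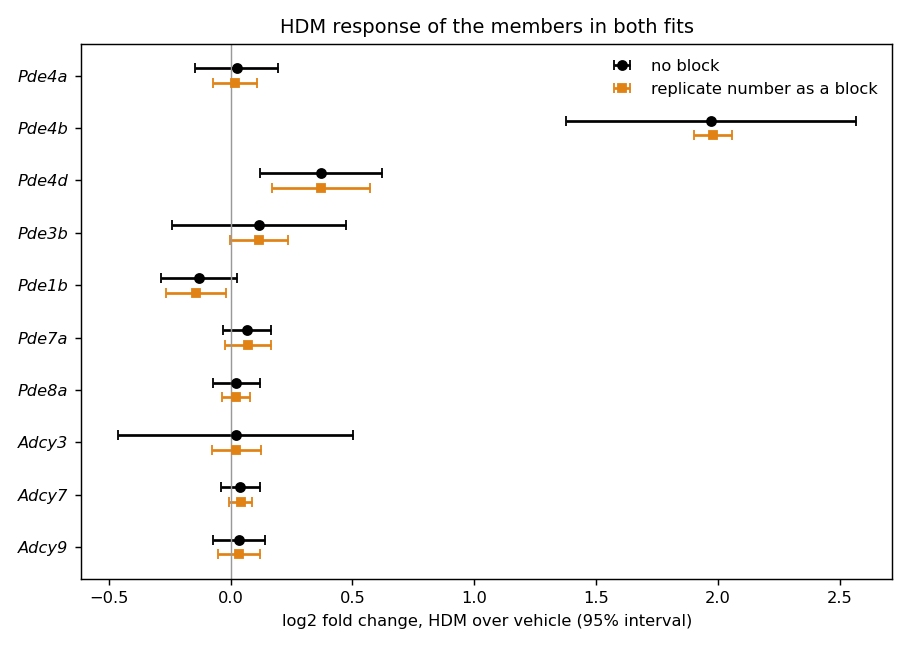
Log2 fold change of HDM over vehicle (x axis) of each member (y axis) with its 95% interval, without a block (black circles) and with the replicate number as a block (orange squares). Pde4b stands at 1.97 and 1.98, Pde4d at 0.37 in both fits, and the intervals of the other 8 include 0, except that of Pde1b with the block (-0.27 to -0.02). The intervals of Pde4b and Adcy3 are the ones that shrink most with the block.

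Divided by the length of its merged exons in the GENCODE M21 annotation (GRCm38), which may differ from the one the authors counted on, Adcy7 had the highest level of the 10 genes, at 59.7 ± 1.53 CPM per kb with HDM and 58.1 ± 2.97 with vehicle (SD over libraries, n = 6 each). Pde8a followed at 20.3 ± 1.31 CPM per kb with HDM and 20.0 ± 0.861 with vehicle. Pde4b ranked number 3 with HDM, at 12.8 ± 4.51 CPM per kb, and number 5 with vehicle, at 3.29 ± 1.29. Pde1b, at 6.96 ± 0.831 with HDM and 7.60 ± 0.370 with vehicle, and Adcy9, at 7.31 ± 0.298 and 7.13 ± 0.521, did not differ from each other beyond their spread. Neither did Adcy3 (2.71 ± 0.747 and 2.65 ± 0.765) and Pde4a (2.48 ± 0.241 and 2.43 ± 0.241), and with vehicle Pde4b overlapped both. Pde7a (1.95 ± 0.0780 and 1.86 ± 0.0934) and Pde3b (1.24 ± 0.240 and 1.13 ± 0.263) came next. Pde4d was the lowest, at 0.241 ± 0.0228 CPM per kb with HDM and 0.186 ± 0.0309 with vehicle.

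**Figure D4:**
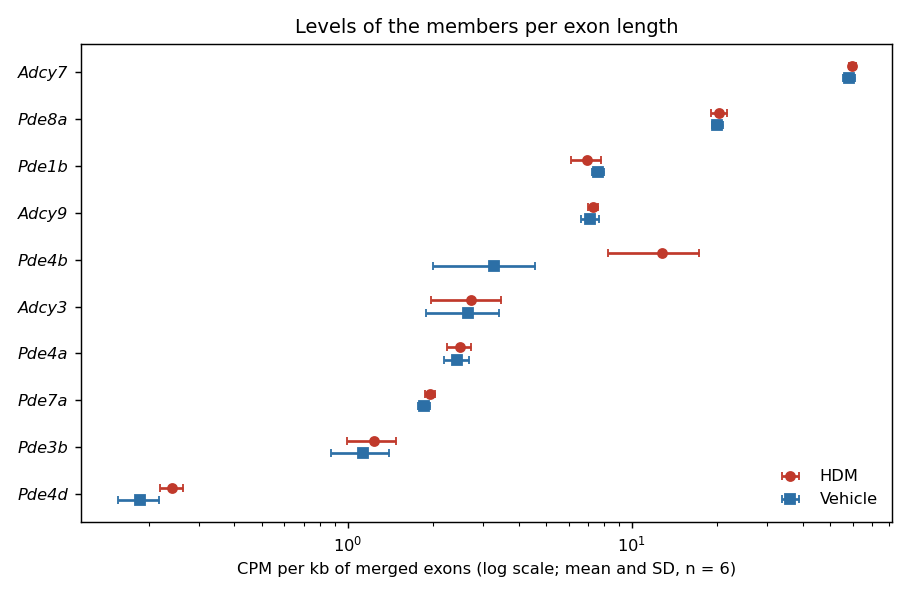
Level of each member in CPM per kb of merged exons (x axis, log scale), mean and SD over 6 libraries, HDM as circles above vehicle as squares, ordered by the vehicle level. The means and SDs of 8 members overlap between treatments. Pde4b stands at 12.8 with HDM and 3.29 with vehicle, and the SD bars of Pde4d, at 0.241 and 0.186, do not quite meet.

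Most other genes of both families had too few reads to be tested. Of 16 further cyclic nucleotide phosphodiesterase genes 7 passed the filter and edgeR called none (0 reached an unadjusted p under 0.05, and DESeq2 and limma-voom called 0). Their median log2 change was -0.04, against 0.00 over all tested genes. Pde7b, a relative of Pde7a, averaged 30.0 ± 1.76 CPM with HDM, against 31.4 ± 2.95 CPM with vehicle (log2 fold change -0.06 ± 0.06 SE, edgeR adjusted p = 0.855). Pde6b, which encodes a subunit of the photoreceptor enzyme, was near the filter at 0.413 ± 0.181 CPM with HDM and 0.518 ± 0.178 with vehicle. Pde4c, the remaining PDE4 gene of mouse, was not tested, with 5 HDM reads and 8 vehicle reads in all, and Pde6c and Pde9a had 0 reads. Of 7 further adenylyl cyclase genes, Adcy2 and Adcy6 were tested and neither was called by edgeR, DESeq2 or limma-voom (0 at an unadjusted p under 0.05). Adcy2 averaged 18.0 CPM with HDM and 17.6 CPM with vehicle (log2 fold change 0.02 ± 0.08 SE, edgeR adjusted p = 1).

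Around these enzymes, receptors that couple to Gs and early genes listed as targets of the cAMP-responsive factor CREB rose in part. G proteins and cAMP effectors were not called without a block. Whether CREB drove any of these changes was not tested. Of 10 tested receptors that couple to Gs 4 rose by edgeR, against 2.90% of all tested genes. The number lower was 0, also at an unadjusted p under 0.05 and by DESeq2 and limma-voom, and the median log2 change of the 10 was 0.39. This list and those of the next paragraphs were chosen with earlier results of these data known. Their counts and medians, with or without the block, therefore only describe them. Gpr65, the gene of an acid-sensing receptor, averaged 55.5 ± 7.47 CPM with HDM, against 35.2 ± 5.57 CPM with vehicle (log2 fold change 0.66 ± 0.11 SE, edgeR adjusted p = 0.00243). Adora2b, the gene of an adenosine receptor, averaged 7.95 ± 1.02 CPM with HDM, against 5.06 ± 1.06 CPM with vehicle (0.64 ± 0.14 SE, adjusted p = 0.0146). Ptger4, which encodes the EP4 receptor for prostaglandin E, averaged 54.7 ± 3.34 CPM with HDM, against 25.9 ± 2.87 CPM with vehicle (1.08 ± 0.07 SE, adjusted p = 4.4e-07). These 3 were higher with HDM in 6 of 6 numbers. With the block 6 rose, against 7.90% of all tested genes. Added by the block were Calcrl, at 1.07-fold (edgeR adjusted p = 0.00918), and Adora2a, at 1.66-fold with an adjusted p just under 0.05. Adora2a averaged only 0.906 CPM with HDM and 0.550 with vehicle. Without the block neither was called (edgeR adjusted p = 0.413 for Calcrl and 0.326 for Adora2a). With neighbouring numbers summed, the log2 fold changes of Gpr65 (0.66, edgeR adjusted p = 0.19) and Adora2b (0.64, adjusted p = 0.371) were as large but not called, and with the pair of numbers as a block both were called (adjusted p = 1.59e-08 and 3.49e-05).

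Of 12 tested receptors that couple to the inhibitory G protein Gi, 2 rose and 1 fell, with a median log2 change of 0.03. Over all tested genes 2.90% rose and 2.47% fell. Hcar2, the gene of the niacin receptor, averaged 3.94 ± 0.640 CPM with HDM, against 1.81 ± 0.621 CPM with vehicle (log2 fold change 1.11 ± 0.20 SE, edgeR adjusted p = 0.0052). S1pr1, the gene of a sphingosine 1-phosphate receptor, averaged 79.2 ± 1.84 CPM with HDM, against 72.6 ± 2.33 CPM with vehicle (0.13 ± 0.03 SE, adjusted p = 0.0176), a call that was lost in the libraries numbered 5 and 6 alone (0.07, adjusted p = 0.42) and with no filter (adjusted p = 0.0895). The fall was that of the chemokine receptor gene Cxcr4, at 61.7 ± 17.0 CPM with HDM, against 158 ± 42.0 CPM with vehicle (-1.36 ± 0.20 SE, adjusted p = 0.000849). With the block 3 rose and 1 fell, against 7.90% and 6.81% of all tested genes. With neighbouring numbers summed, the log2 fold changes were 1.13 for Hcar2 (edgeR adjusted p = 0.258), 0.12 for S1pr1 (adjusted p = 0.552) and -1.35 for Cxcr4 (adjusted p = 0.136), none of them called. With the pair of numbers as a block all 3 were called (adjusted p = 3.92e-05 for Hcar2, 0.0204 for S1pr1 and 5.8e-13 for Cxcr4). Hcar2 was at 0.93 in numbers 1 to 4 alone and 1.73 in numbers 5 and 6 alone, and called in both.

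No G protein subunit or partner was called among 10 tested by edgeR without a block (2 reached an unadjusted p under 0.05). DESeq2 and limma-voom called 0, and the block called 1 lower, against 6.81% of all tested genes. Gnal, the gene of an olfactory relative of the Gs alpha subunit, averaged 1.33 ± 0.380 CPM with HDM, against 1.79 ± 0.204 CPM with vehicle (log2 fold change -0.41 ± 0.17 SE, edgeR adjusted p = 0.288, and 0.0376 with the block). Ric8b went the other way, at 14.7 ± 1.44 CPM with HDM and 13.2 ± 0.841 with vehicle. Its log2 fold change was 0.16 ± 0.07 SE (edgeR adjusted p = 0.313, and 0.0604 with the block). None of 11 tested cAMP effectors was called by edgeR, with or without the block, DESeq2 or limma-voom (0 at an unadjusted p under 0.05 without the block). Rapgef3, the gene of the cAMP sensor EPAC1, was at -0.32 ± 0.17 SE on the log2 scale (edgeR adjusted p = 0.482), and Prkaca, the gene of the catalytic alpha subunit of protein kinase A, at 0.07 ± 0.04 SE (adjusted p = 0.6). None of 10 tested genes of the cAMP exporter and of partners of these enzymes was called in those fits either (0 at an unadjusted p under 0.05 without the block), among them Akap13 at 0.08 ± 0.05 SE (adjusted p = 0.578) and the beta-arrestin gene Arrb1 at -0.07 ± 0.05 SE (adjusted p = 0.721).

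Of 13 tested CREB-driven early genes 10 rose by edgeR, against 2.90% of all tested genes. The number lower was 0, also at an unadjusted p under 0.05 and by DESeq2 and limma-voom. The 10 were Nr4a1, Nr4a2, Nr4a3, Fos, Fosb, Dusp1, Areg, Il10, Id3 and Per1, and their list had a median log2 change of 2.68. Many of these genes are also driven by other signals. The list was chosen with earlier results of these data known, so its count and median only describe it. With the block 12 rose, against 7.90% of all tested genes. With neighbouring numbers summed, Nr4a2 (log2 fold change 1.82), Nr4a3 (3.16), Fosb (3.10), Per1 (0.39) and Areg (6.41) were not called by edgeR, and with the pair of numbers as a block all 5 were. Areg had 517 reads in the HDM libraries together and only 5 in the vehicle libraries, so the size of its change is uncertain. Its 95% interval in the fit without a block was 4.44 to 8.30 on the log2 scale. Dusp1, the gene of a MAP kinase phosphatase, averaged 863 ± 107 CPM with HDM, against 135 ± 68.2 CPM with vehicle (log2 fold change 2.68 ± 0.27 SE, edgeR adjusted p = 3.93e-05). Its log2 fold change was 3.12 in numbers 1 to 4 alone and 2.17 in numbers 5 and 6 alone. That of Nr4a2 was 2.32 in numbers 1 to 4 alone and 1.38 in numbers 5 and 6 alone, and these differences were not tested. Id3, the gene of a transcription regulator, averaged 67.4 ± 6.38 CPM with HDM, against 43.4 ± 2.90 CPM with vehicle (0.63 ± 0.06 SE, adjusted p = 2.64e-05). The clock gene Per1 averaged 52.0 ± 6.11 CPM with HDM, against 40.0 ± 4.56 CPM with vehicle (0.38 ± 0.09 SE, adjusted p = 0.0236), and its call was lost without HDM 5, vehicle 1, vehicle 2, vehicle 3 or vehicle 4 (adjusted p 0.0511 to 0.0558). Crem, whose short product ICER represses cAMP-responsive genes, averaged 32.0 ± 12.1 CPM with HDM, against 22.1 ± 10.7 CPM with vehicle (0.55 ± 0.31 SE, adjusted p = 0.52, and 4.24e-07 with the block). Sik1, the gene of a kinase that restrains CREB coactivators, averaged 95.1 ± 11.4 CPM with HDM, against 93.4 ± 24.6 CPM with vehicle (0.03 ± 0.15 SE, adjusted p = 1).

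**Figure D5:**
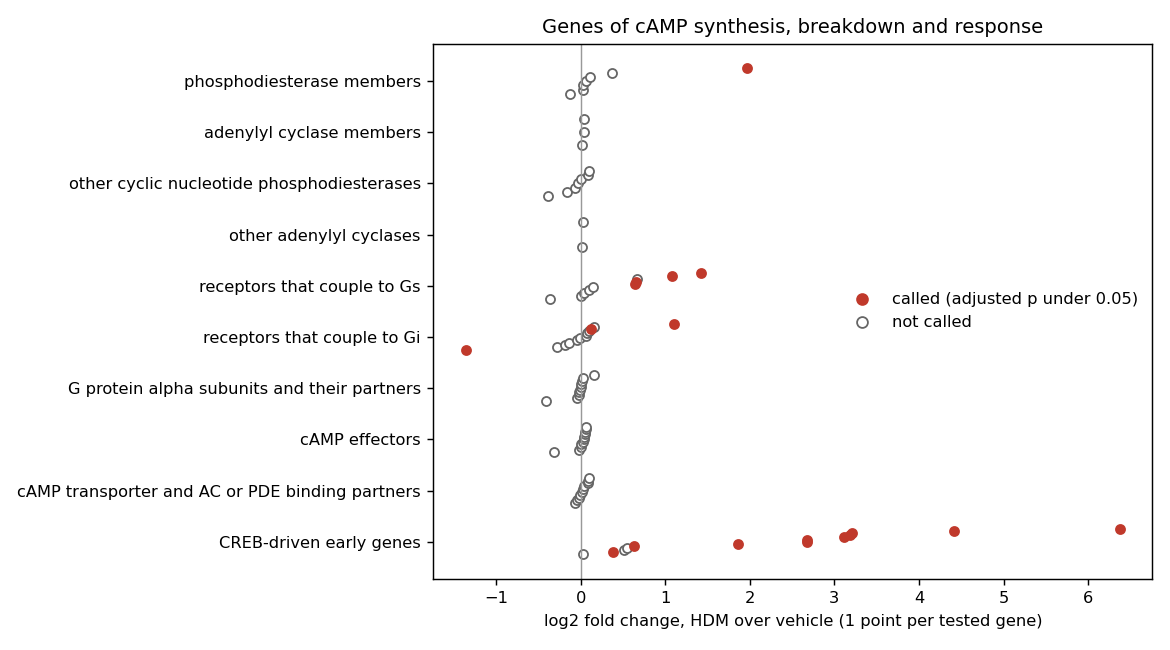
Log2 fold change of HDM over vehicle (x axis) of every tested gene of the lists, 1 point each, for the members and for 8 other lists of cAMP genes (y axis). Red points were called at an adjusted p under 0.05 and white points were not. Pde4b is the red point among the members at 1.97, 4 red points lie among the receptors that couple to Gs, and 10 among the CREB-driven early genes. Among the receptors that couple to Gi, 2 red points lie right of 0 and 1 lies left of it, Cxcr4 at -1.36.

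By Pearson's r of log2 CPM over the 12 libraries, among 10867 other genes that averaged 1 CPM or more, leaving out symbols of the Gm and Rik kind, the 5 genes most like Pde4b were Ccrl2 (r = 0.997), Nr4a3 (0.993), Pim1 (0.993), Odc1 (0.992) and Fosb (0.992). Ccrl2, the gene of a chemokine-binding receptor, averaged 223 CPM with HDM and 44.7 CPM with vehicle, and Pim1, a kinase gene, averaged 259 CPM with HDM and 145 CPM with vehicle. The genes most like Pde4d were Tnfrsf10b (0.895), Cdr2 (0.875), Inpp1 (0.867), Rnf145 (0.861) and Syne2 (0.855). These are descriptions over points that share the treatment and the split between library numbers, so a high r holds both.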

How the data were processed

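Per the labels' protocols, column-purified, DNase-treated RNA went into a stranded mRNA library kit. The authors deposited unscaled read counts per gene, 1 column per library. Per the submitters' processing notes the authors used STAR 2.6.0c, featureCounts 2.0.6, cutadapt 4.5, Trim Galore 0.6.10 and FastQC 0.12.1. The builds GRCm38 and mm39 are both named with no role. The sources used here do not give the annotation, the strand setting of the counting or the read layout.

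Counts were tested with edgeR 4.0.16 (R 4.3.3, limma 3.58.1) after filterByExpr at defaults and TMM scaling, with group as the only term and p-values adjusted over 13530 genes. The standard error is the absolute log2 fold change divided by the square root of F. Intervals use the t quantile at the total degrees of freedom. CPM use TMM factors, except those of marker sums, which use all reads. Correlations and principal components used log2(CPM + 0.5). The script was tested on simulated data. Alternatives were RLE, upper-quartile and total-size scaling, other filters, DESeq2 1.42.0, limma-voom, a robust fit, a replicate block, libraries left out and neighbouring numbers summed.

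Equal numbers deviated together, with correlations from 0.466 to 0.783 across genes, all above the bound of 0.1. That bound does not tell equal numbers from unequal ones, so it does not establish pairs. HDM 1 correlated with vehicle 2 at 0.644 and with vehicle 1 at 0.581, and HDM 5 with vehicle 6 at 0.805 and with vehicle 5 at 0.762. The main fit therefore used no pairs. Equal numbers were matched only in the fits with a replicate block and in the comparisons within numbers, and the labels do not state such a match. Between neighbouring libraries the chi-square per degree of freedom was lowest for HDM 3 and HDM 4, at 2.23, still more than sampling noise. Not all neighbours were close. HDM 1 and HDM 2 were at 20.98, above HDM 1 and HDM 3 at 10.63, so the grouping of summed neighbours is not borne out for them. It is not excluded either, because this measure grows with read depth. HDM 2 had 40.98 M reads and HDM 3 had 19.76 M.

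Named genes are all members, the called genes of each list or 1 to 2 with the smallest p, and likeness by Pearson's r. Called list genes given only by name are counted too. Crem, Sik1, Pde4c, Pde6c, Pde9a, Adcy6 and genes that overlap members were named after their values were seen. Values of 1 called receptor gene are not reported here. Members and lists were chosen with earlier results of these data known. Promoter sequences are from RefSeq (GRCm38.p6).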

Additional observations from a re-analysis of the deposited data

How the results depend on the processing

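Pde4b kept its direction in every alternative run (log2 fold change 1.83 to 2.13) and its call in all but 1, the sum of neighbouring numbers. Pde4d was called with the replicate block alone among the alternatives that use separate libraries and all numbers. With the replicate block the members called went to 2, and genes called to 1069 higher and 921 lower, with 2 pathway genes lower. The block changed no other call of a member. Libraries numbered 1 to 4 gave 683 genes higher and 393 lower. Those numbered 5 and 6, with n = 2 each, gave 572 higher and 567 lower, 2 members (Pde4b and Pde1b) and 3 pathway genes lower. Summing neighbours gave 87 genes higher and 32 lower, 0 members (no member at an adjusted p under 0.05), and 7 pathway genes higher and 0 lower, without calls for Adora2b, Gpr65, Hcar2, S1pr1, Cxcr4, Nr4a2, Nr4a3, Fosb, Per1 and Areg (adjusted p 0.0968 to 0.552). Their fold changes stayed about as large, and with the pair of numbers as a replicate block edgeR called all 10.

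Pde1b was also called lower in the blocked fit without number 2 (-0.21, edgeR adjusted p = 0.0131), but not without number 1 (-0.06, adjusted p = 0.513), and in that of summed neighbours (-0.17, adjusted p = 0.00684). The sign of members near 0 turned in some settings, never with a call. Leaving out 1 library or number moved Adcy3 between -0.0889 and 0.1243, Pde4a between -0.0127 and 0.0735 and Pde8a between -0.0011 and 0.047. Adcy3 was at -0.0179 with limma-voom, and Adcy7 and Adcy9 were at -4e-04 and -0.0929 in numbers 5 and 6 alone. The cause was not tested. The leave-out fits with the block, the ratios within a library and the blocked fit of summed neighbours were chosen after seeing the data. Depth limits Pde4d most, with 48 to 359 reads a library.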
